A study of Mus musculus with 4 samples.

Results

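The tissue difference between solitary isolated lymphoid tissue (SILT) and the surrounding lamina propria of the colon was measured in Csf2-/- mice, lineage by lineage. Cells were assigned to 1 of 4 lineages by the unique molecular identifiers (UMIs, each standing for 1 captured RNA molecule) of a few gate genes: endothelial cells by at least 4 UMIs of Kdr and Flt1 together, mural cells by at least 4 of Pdgfrb and Notch3, dendritic cells by at least 2 of Flt3, and monocyte-macrophages by at least 2 of Csf1r. A barcode was kept with at least 200 genes and at most 10% of its UMIs from mitochondrial genes, and it entered a lineage only when it passed that gate and no other. By this rule 2798 of the 4352 kept Csf2-/- cells were members, out of 16557 kept cells in the series.

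The series holds 4 single-cell 3' libraries, 1 for each group: lamina propria and SILT of the colon, each from Csf2-/-:CX3CR1-GFP/+:CCR2-RFP/+ mice and from Csf2+/+:CX3CR1-GFP/+:CCR2-RFP/+ mice. All 4 groups therefore carried a GFP reporter allele at CX3CR1 and an RFP reporter allele at CCR2, were untreated and at steady state, and were enriched for CD11b. Collection from 5 mice is given in the design text, with no word on pooling. With 1 library in each group there was no replicate error and no test: the intervals below are exact 95% intervals for counting error only, and a difference between the libraries cannot be told apart from a difference between the tissues. The Csf2+/+ pair, which shares no library with the Csf2-/- pair, is given beside the results.

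SILT is the family of small lymphoid structures in the gut wall that runs from cryptopatches to mature isolated lymphoid follicles, whereas the lamina propria is the connective tissue around them. Both are supplied by blood vessels, lined by endothelial cells and wrapped by mural cells (pericytes and smooth muscle), and both house macrophages, which monocytes replenish through CCR2, and conventional dendritic cells, which carry antigen to T cells after switching on the chemokine receptor CCR7. Csf2 encodes the cytokine GM-CSF, which intestinal innate lymphoid cells and T cells secrete and which acts on myeloid cells through a receptor made of the Csf2ra and Csf2rb chains. Plasma cells of the gut wall secrete IgA, whose heavy chain, usual light chain and joining chain are the products of Igha, Igkc and Jchain.

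No Csf2 UMI was found in any of the 4 lineages, nor in the barcodes passing no gate, in either Csf2-/- library. This checks the genotype little, because a 3' tag can lie outside a deleted part and because the Csf2+/+ levels in these lineages were also at most 0.0784 counts per 1000000 (CPM). The receptor chains were read in the myeloid lineages: Csf2ra stood at 125 CPM in SILT against 176 CPM in lamina propria in dendritic cells and at 163 against 200 CPM in monocyte-macrophages. Csf2rb stood at 117 against 111 CPM and at 129 against 134 CPM in the same lineages.

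The deposited barcodes numbered 2158 for lamina propria and 2578 for SILT, of which 1974 and 2378 were kept, with medians of 8950 and 7204 UMIs per kept cell. Only 3 barcodes occurred in both libraries. The lineages were checked on markers that the gates did not use: 8 of 8 endothelial, 9 of 9 mural, 10 of 11 dendritic and 12 of 13 monocyte-macrophage markers were highest in their own lineage. Pecam1, the endothelial adhesion molecule, stood at 1662 CPM in SILT and 1577 CPM in lamina propria in endothelial cells. Rgs5, a pericyte marker, stood at 9288 and 11388 CPM in mural cells, and Xcr1, the receptor of type 1 dendritic cells, at 163 and 165 CPM in dendritic cells. The labelled CD11b selection did not describe every member, since Itgam, which encodes CD11b, was at 3.23 and 1.15 CPM in endothelial cells and at 0 and 2.22 CPM in mural cells, against 260 and 331 CPM in monocyte-macrophages.

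Mural and dendritic cells made up a smaller share of the kept cells in SILT, and barcodes passing no gate a larger one. Mural cells were 50 of 2378 (2.1%, exact binomial interval 1.56 to 2.76%) in SILT and 151 of 1974 (7.65%, 6.52 to 8.91%) in lamina propria. Dendritic cells were 3.74% (3.02 to 4.59%) in SILT and 5.72% (4.74 to 6.84%) in lamina propria. The dendritic intervals overlapped with looser gates (3.66 to 5.37% and 4.19 to 6.18%), and in cells thinned to 3000 UMIs with gates of 2, 2, 1 and 1 UMIs (3.24 to 5.11% and 4.26 to 6.46%). Monocyte-macrophages were 41.0% (39.0 to 43.0%) and 38.3% (36.1 to 40.5%), and endothelial cells 14.1% (12.7 to 15.6%) and 16.7% (15.1 to 18.4%), so that both pairs of intervals overlapped. The mural share was lower in SILT in the Csf2+/+ libraries too, at 1.88% against 5.50%. The Csf2+/+ dendritic shares were 1.5% in SILT and 1.69% in lamina propria. These shares leave out barcodes passing both the dendritic and the monocyte-macrophage gate. Such barcodes numbered 50 in SILT and 138 in lamina propria in Csf2+/+, and 51 and 64 in Csf2-/-. The dendritic shares of the genotypes therefore cannot be compared apart from the exclusive gate. The Csf2+/+ monocyte-macrophage share was lower in SILT, at 25.5% against 37.8%. Barcodes passing no gate were 30.5% of SILT and 17.6% of lamina propria, with medians of 2364.5 and 2982 UMIs. Those passing several gates were 8.58% and 13.98%, mostly endothelial and mural together (140 and 199 barcodes). The CD11b selection, the gates and the depth of a cell can each set these shares, and their part was not tested.

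**Figure D1:**
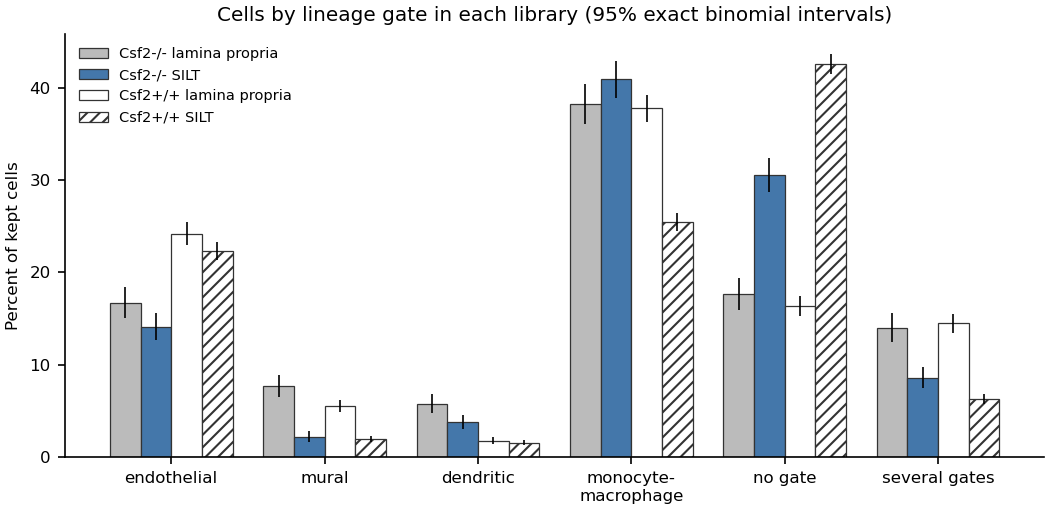
Share of kept cells in each lineage (percent, vertical axis) for the 4 libraries; bars are shares and whiskers exact 95% binomial intervals for counting error. Mural cells were 2.1% of Csf2-/- SILT against 7.65% of Csf2-/- lamina propria, and monocyte-macrophages 41.0% against 38.3%.

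For each lineage the UMIs of its cells were summed within a library and divided by the lineage total, giving CPM, and the level in SILT was divided by the level in lamina propria. A gene counted as measured in a lineage when its mean over both tissues was at least 25 CPM, it had at least 30 UMIs over both, and its mean was at least 10% of that in the highest of the 4 lineages and the ungated barcodes, which limits signal carried over as free RNA. This left 5739 genes in endothelial cells, 5752 in mural cells, 4634 in dendritic cells and 4970 in monocyte-macrophages. The depth behind them differed: the mural sum held 243865 UMIs in SILT and 902893 in lamina propria, against 10241298 and 7738257 for monocyte-macrophages, 2787750 and 2603139 for endothelial cells, and 1258881 and 1510898 for dendritic cells. The share of genes past 1.5-fold was highest in mural cells, where 10.6% of measured genes reached 1.5-fold upward and 12.2% downward in SILT, against 0.767% and 0.871% in endothelial cells, 3.88% and 11% in dendritic cells, and 1.33% and 1.81% in monocyte-macrophages. The part of depth in these shares was not tested. The median log2 ratio of SILT to lamina propria over all measured genes was 0.03, 0.01, -0.11 and -0.11 in endothelial, mural, dendritic and monocyte-macrophage cells.

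The choice of scaling moves that split. With TMM factors the log2 ratios shifted by 0.12 in dendritic cells and 0.13 in monocyte-macrophages, and the genes at least 1.5-fold higher and lower became 331 and 302 in dendritic cells (180 and 511 by CPM), 127 and 36 in monocyte-macrophages (66 and 90 by CPM) and 460 and 862 in mural cells (611 and 702 by CPM). The DESeq2 size factors gave 342 and 296, 125 and 36, and 463 and 849. The ratios below are to be read beside the medians of all genes.

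Differences shared by all 4 lineages were few, and those that met the rule were transcripts of the mitochondrial genome and 1 unnamed gene, all lower in SILT. Of 3221 genes measured in all 4 lineages, 2313 reached 1.5-fold in none. At least 1.5-fold lower in all 4 were 4 genes, 0.124% of those measured: AY036118, mt-Atp6, mt-Nd3 and mt-Nd6. None (0%) was at least 1.5-fold higher in all 4. The same rule applied to the Csf2+/+ pair gave 49 shared higher and 58 shared lower genes of 3354 measured, and the 4 genes were among the 58.

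AY036118, annotated without a named product, showed the largest shared difference. It stood at 249 CPM in SILT and 936 CPM in lamina propria in endothelial cells, 3.76-fold lower (3.46 to 4.10). In mural cells it was 545 against 2682.5 CPM, 4.92-fold lower (4.13 to 5.90), in dendritic cells 167 against 528 CPM, 3.16-fold lower (2.71 to 3.70), and in monocyte-macrophages 255 against 671 CPM, 2.63-fold lower (2.51 to 2.76). No pair of level intervals overlapped in any lineage. The ungated barcodes differed the same way, 201 against 1037 CPM. In the Csf2+/+ pair the log2 ratios were -1.11, -1.81, -0.63 and -1.14 in the same order of lineages.

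The mitochondrial genome encodes subunits of the respiratory chain and of the ATP synthase, and its transcripts did not fall evenly. mt-Atp6, a subunit of the ATP synthase, stood at 4802 CPM in SILT and 7475 CPM in lamina propria in endothelial cells, 1.56-fold lower (1.52 to 1.59). It was 5323 against 8741 CPM in mural cells, 2823 against 4877 CPM in dendritic cells and 3659 against 5795 CPM in monocyte-macrophages, which is 1.64-fold (1.55 to 1.74), 1.73-fold (1.66 to 1.80) and 1.58-fold (1.56 to 1.61) lower. mt-Nd3, a subunit of complex I, was 1.95-fold (1.79 to 2.13), 1.73-fold (1.40 to 2.18), 2.41-fold (2.08 to 2.79) and 2.09-fold (2.0 to 2.19) lower in the same order. mt-Nd6, a complex I subunit encoded on the opposite strand to the rest, had few molecules in mural cells (12 UMIs in SILT and 73 in lamina propria), where its ratio of 1.64-fold lower had an interval of 0.886 to 3.32 that spans 1. Elsewhere mt-Nd6 was 1.52-fold (endothelial), 2.95-fold (dendritic) and 1.69-fold (monocyte-macrophage) lower.

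The list ran from these down to transcripts close to level. mt-Co1, the catalytic subunit of cytochrome oxidase, had log2 ratios of -0.10, -0.07, -0.15 and -0.06 in endothelial, mural, dendritic and monocyte-macrophage cells, and mt-Co3 of -0.08, -0.12, -0.11 and -0.09. Of the 13 mitochondrial protein genes, 4, 6, 6 and 4 were at least 1.5-fold lower and none higher, with median log2 ratios of -0.48, -0.54, -0.51 and -0.42. Of all genes measured, 0.871%, 12.2%, 11% and 1.81% were at least 1.5-fold lower in the same order. The share of all UMIs from the mitochondrial genes was 2.71% in SILT against 3.38% in lamina propria in endothelial cells and 3.45% against 4.24% in mural cells. It was 2.14% against 2.67% in dendritic cells and 2.74% against 3.28% in monocyte-macrophages. The cell filter itself acts on this share, and keeping cells with at most 5% in place of 10%, and at least 500 genes, left mt-Atp6 in endothelial cells at a log2 ratio of -0.54, below 1.5-fold. With that filter 3 genes were lower in all 4 lineages, and only 2 of them were among the 4 shared genes. Of the 4, 3 were still called with TMM factors, DESeq2 size factors or a free RNA screen of 25%. With cells of several gates kept in each lineage 2 were.

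**Figure D2:**
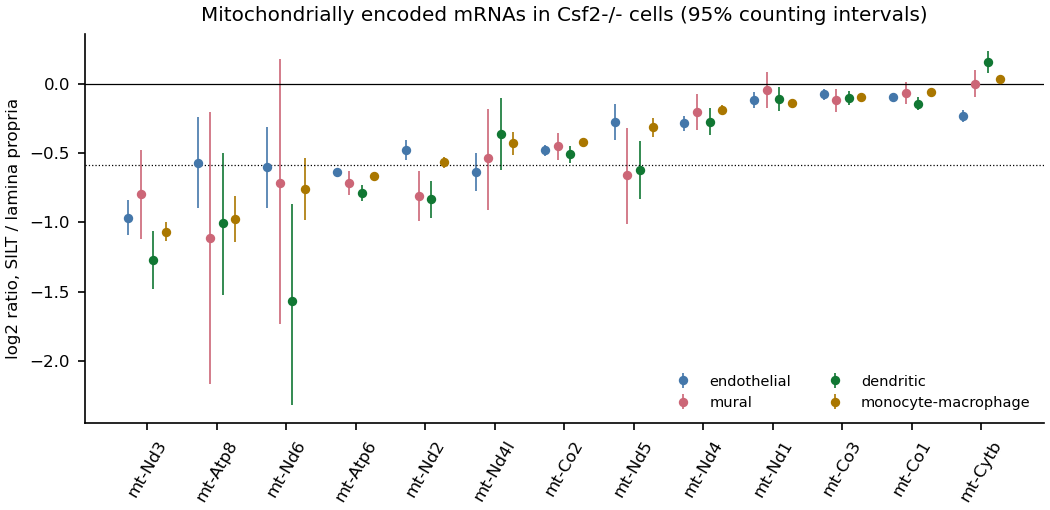
Log2 ratio of SILT to lamina propria in Csf2-/- libraries (vertical axis) for the 13 mitochondrial protein genes in each lineage; points are ratios and whiskers exact 95% intervals for counting error. mt-Atp6, mt-Nd3 and mt-Nd6 lay at or below -0.60 in all 4 lineages, and mt-Co1 between -0.15 and -0.06.

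The nuclear genes of complex I moved the other way by small amounts. Their median log2 ratio was 0.14 over 24 measured genes in endothelial cells, 0.32 over 23 in mural cells, 0.34 over 24 in dendritic cells and 0.33 over 24 in monocyte-macrophages, above the medians of all genes in each. Few were 1.5-fold or more higher: none, 2, 1 and 1, where 0.767%, 10.6%, 3.88% and 1.33% of all measured genes were. Ndufv3, a small flavoprotein subunit, was 157 CPM in SILT and 100.4 CPM in lamina propria in monocyte-macrophages, 1.57-fold higher (1.44 to 1.71). In the Csf2+/+ pair the medians of the same genes were 0.46, 0.71, 0.78 and 0.70.

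Antibody RNA was higher in SILT in every lineage, but in the myeloid lineages the sum was set by a few cells. Antibody-rich cells, here those with at least 10% of their UMIs from Igkc, Igha and Jchain, were 37 of 974 monocyte-macrophages in SILT and 13 of 756 in lamina propria, 2 of 89 and none of 113 dendritic cells, and none of the endothelial or mural cells. They held 98.1% and 97.3% of the UMIs of these 3 genes in the monocyte-macrophages. They were also deep cells, with a median of 35714 UMIs in SILT and 28551 in lamina propria, against 8625 and 9767 in the other monocyte-macrophages. Their median Csf1r count was 6 and 10 UMIs, against 7 and 8 in the others, and their median count of the C1q genes was 18 and 60, against 48 and 44. Whether each is 1 cell or a plasma cell captured with a macrophage was not tested. Scrublet, a doublet caller, marked 10 SILT and 7 lamina propria barcodes in all.

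In the cells that were not antibody-rich, a group chosen after seeing the data and by these 3 genes, Igkc, Igha and Jchain met the rule for shared higher genes. No other gene did. No endothelial or mural cell was left out by this step, and the log2 ratios of Jchain there were 1.70 and 1.45 with or without it. Jchain counted as measured there only after the antibody-rich cells were left out. The shared call therefore depends on a choice of cells made by the same genes. Igkc stood at 567 CPM in SILT and 151 CPM in lamina propria in endothelial cells, 697 and 198 CPM in mural cells, 646 and 192 CPM in dendritic cells, and 755 and 304 CPM in monocyte-macrophages. The ratio was 3.76 (3.36 to 4.21) in endothelial, 3.52 (2.83 to 4.36) in mural, 3.37 (2.94 to 3.87) in dendritic and 2.48 (2.37 to 2.61) in monocyte-macrophage cells. Igha was 3.4-fold, 3.22-fold, 3.33-fold and 2.44-fold higher, and Jchain 3.25-fold, 2.74-fold, 4.69-fold and 1.99-fold higher, the mural value of Jchain resting on 17 and 23 UMIs. Endothelial and mural cells, which do not make antibody, thus held these RNAs at levels near those of the myeloid lineages, and the median count of the 3 genes in such cells was 7 against 1 UMIs in endothelial, 6 against 1 in mural, 11 against 4 in dendritic and 9 against 3 in monocyte-macrophage cells. The Csf2+/+ pair had Igkc higher in SILT in all 4 as well, with log2 ratios of 3.10, 2.74, 2.48 and 2.27.

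**Figure D3:**
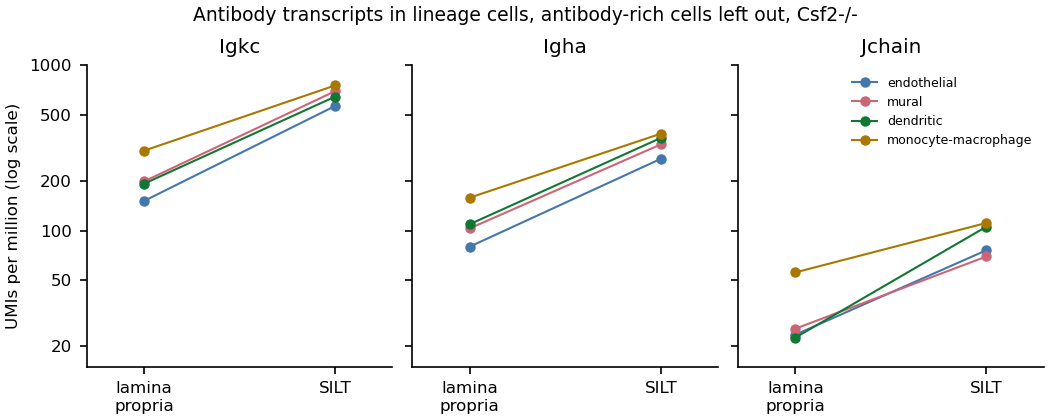
Level of Igkc, Igha and Jchain (CPM, log axis) in each lineage of the Csf2-/- libraries without antibody-rich cells; points are levels of 1 library each and lines join the tissues of a lineage. Every SILT point lies above its lamina propria point, Igkc at 567 to 755 CPM against 151 to 304 CPM.

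Few genes differed between the tissues in both myeloid lineages without a measured difference in the vascular ones. Of 4122 genes measured in both, 20 (0.485%) were at least 1.5-fold higher and 37 (0.898%) lower in dendritic cells and monocyte-macrophages alike. With endothelial and mural cells under 1.5-fold in the same direction or below the level at which a gene was measured, and leaving out mitochondrial, immunoglobulin, haemoglobin and unnamed genes, 12 higher and 25 lower genes remained. These counts are by CPM and depend on the scaling. TMM factors shift the log2 ratios up by 0.12 in dendritic cells and 0.13 in monocyte-macrophages. Lower genes such as Fgfr1 (-0.60) and Ahnak (-0.61) in monocyte-macrophages lie within that shift of the 1.5-fold limit. Dnase1l3, a secreted nuclease of myeloid cells, was higher, at 49.3 against 12.6 CPM in dendritic cells and 190 against 73.9 CPM in monocyte-macrophages. Bst2, the interferon-induced tetherin, stood at 184 against 107 CPM and 315 against 184 CPM. Some of the 12 are genes that plasma cells also make, such as Jchain and Mzb1, and the antibody-rich cells were kept in this count. Jchain did not count as measured in the vascular lineages, but its log2 ratios there were 1.70 (endothelial) and 1.45 (mural). The 12 are therefore not a set apart from the antibody RNA.

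Among the 25 lower genes were lectins of type 2 dendritic cells and of macrophages. Cd209a, a C-type lectin, stood at 247 CPM in SILT and 470 CPM in lamina propria in dendritic cells and at 90.5 and 186 CPM in monocyte-macrophages. Clec10a, another, stood at 121 and 225 CPM, and at 53.7 and 89.6 CPM. Tnip3, an inhibitor of NF-kB signalling, stood at 143 and 361 CPM, and at 49.4 and 115 CPM. Cd209a, Clec10a and Tnip3 were below 0 on the log2 scale in both Csf2+/+ myeloid lineages too (-1.97 and -1.04, -2.53 and -1.02, -2.17 and -1.10).

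Differences of one lineage were called in 2 ways. A gene measured also elsewhere had to be at least 2-fold different, with an interval clear of those of every other lineage in which it was measured and under 1.5-fold the same way in each of them. A gene measured in that lineage alone had to be at least 2-fold different with an interval clear of 1. Both together gave 5 higher and 7 lower genes in endothelial cells, 45 and 38 in mural cells, 17 and 17 in dendritic cells, and 17 and 5 in monocyte-macrophages. Beside these counts, all measured genes 2-fold or more higher and lower made up 0.122% and 0.139% in endothelial, 2.09% and 3.55% in mural, 0.604% and 1.4% in dendritic, and 0.483% and 0.201% in monocyte-macrophage cells.

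**Figure D4:**
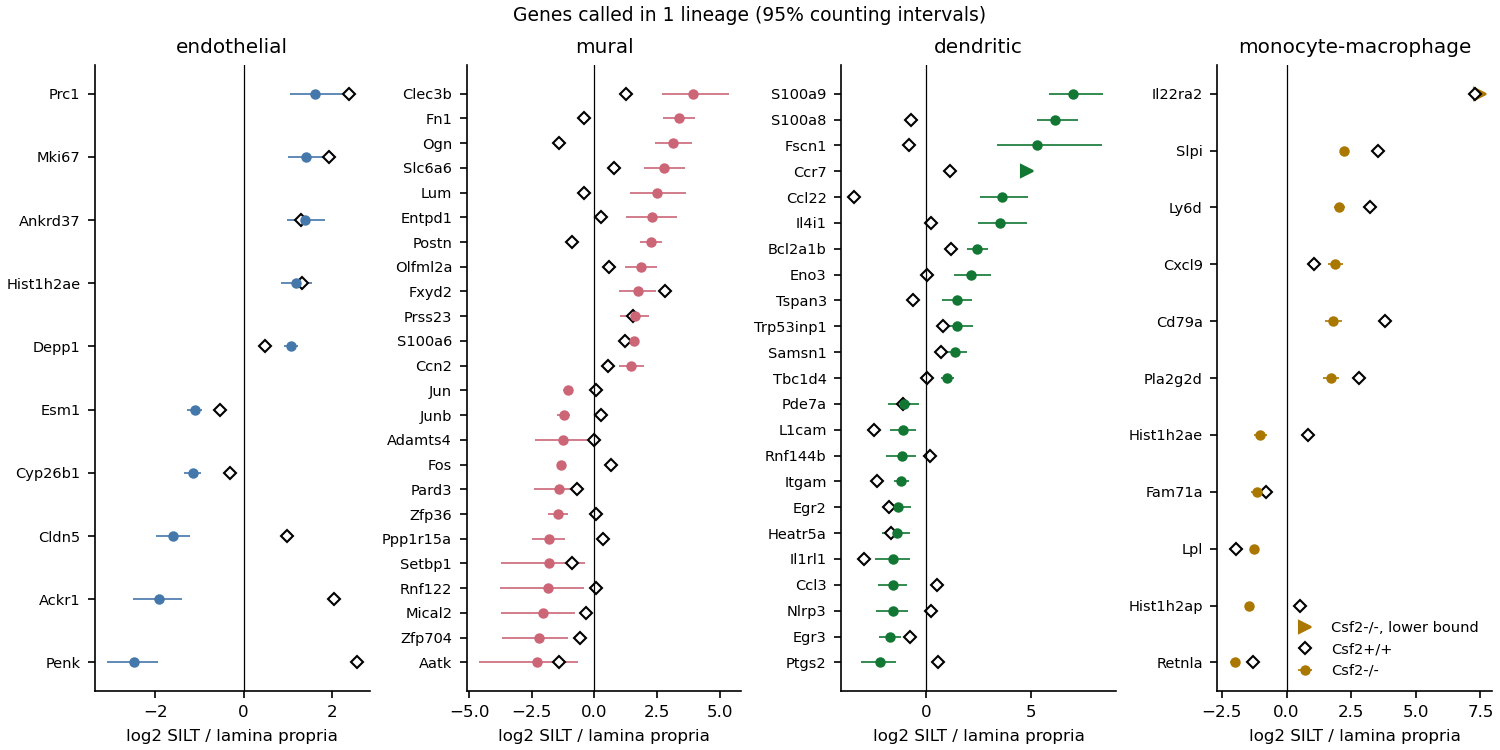
Log2 ratio of SILT to lamina propria (horizontal axis) of genes called in 1 lineage of the Csf2-/- libraries; filled points are Csf2-/- ratios, open diamonds the Csf2+/+ ratios of the same genes, whiskers exact 95% intervals for counting error, and triangles mark lower bounds against a library with 0 UMIs. Fn1 lay 10.3-fold higher in mural cells, and Il22ra2 at least 177-fold higher in monocyte-macrophages.

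Endothelial cells had the fewest called genes at full depth. With every cell thinned to 2000 UMIs they had the most, 33 higher and 21 lower. Depp1, a transcript induced by FOXO factors, stood at 413 CPM in SILT and 197 CPM in lamina propria, 2.09-fold higher (1.88 to 2.32), with a UMI in 196 of 335 and 139 of 330 cells. Ankrd37, a target of hypoxia-inducible factor, stood at 63.5 and 24.2 CPM, 2.62-fold higher (1.96 to 3.56), and had a log2 ratio of 1.3 in the Csf2+/+ pair. These were differences spread over many cells. The other 3 higher genes, Mki67, Prc1 and Hist1h2ae, are expressed in dividing cells and rested on few. Mki67 stood at 72.1 against 27.3 CPM from 6 cells in each library, and without the cells with at least 2 UMIs of Mki67 and Top2a (6 in SILT, 4 in lamina propria) it was 2.15-fold lower in SILT.

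The lower endothelial genes fell into groups. Esm1, a marker of endothelial tip cells, stood at 170 CPM in SILT and 366 CPM in lamina propria, 2.16-fold lower (1.93 to 2.41), in 135 and 142 cells. Cyp26b1, which degrades retinoic acid, stood at 119 and 265 CPM, 2.22-fold lower (1.95 to 2.54), in 94 and 118 cells. Both were also below 0 on the log2 scale in the Csf2+/+ pair, at -0.53 and -0.32.

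The other lower endothelial genes, Ackr1 of venules among them, rested on few cells. Ackr1, a chemokine-binding receptor, stood at 13.3 CPM from 7 cells in SILT and 50.3 CPM from 12 cells in lamina propria, 3.79-fold lower (2.61 to 5.62). Cldn5, a tight junction protein, stood at 28.0 CPM from 16 cells and 84.1 CPM from 21 cells, 3.01-fold lower (2.31 to 3.95). Penk, which encodes proenkephalin, stood at 11.5 CPM from 7 cells and 64.2 CPM from 13 cells, 5.59-fold lower (3.81 to 8.43), with 106 of its 167 lamina propria UMIs in 1 cell. Madcam1, the address molecule through which gut-homing lymphocytes enter, was below the level at which a gene was measured, at 9.69 and 37.3 CPM from 6 and 8 cells. In the Csf2+/+ pair the log2 ratios of Ackr1, Cldn5, Penk and Madcam1 had the opposite sign (2.04, 0.98, 2.56 and 1.59). Ackr1 and Penk did not count as measured in the Csf2+/+ endothelial cells, whereas Cldn5 did. Whether the genotypes differ was not tested. The 10 genes of the venous list summed to 609 CPM in SILT and 804 CPM in lamina propria. The capillary list had a median of 0.23 over 9 genes, with 1 at least 1.5-fold lower, Esm1, and 1 higher. The higher one, Gpihbp1, which anchors lipoprotein lipase to capillaries, stood at 194 against 106 CPM, 1.83-fold higher (1.58 to 2.12).

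Haemoglobin RNA was lower in SILT endothelial cells, and 4 of 4 measured haemoglobin genes were at least 1.5-fold lower, against 0.871% of all endothelial genes. Hbb-bs stood at 1304 and 3309 CPM, 2.54-fold lower (2.44 to 2.64), and Hbb-bt at 96.5 and 418 CPM, 4.34-fold lower (3.79 to 4.97). A single cell held 2177 of the 3635 Hbb-bs UMIs in SILT and 4104 of the 8614 in lamina propria. The erythroid list summed to 2358 and 5397 CPM in endothelial cells and to between 27.8 and 38.8 CPM in the other lineages of either library. Red cell carry-over was not tested.

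In mural cells the immediate early genes, which encode transcription factors and regulators switched on within minutes of a stimulus, and also by tissue dissociation, were lower in SILT as a group. Of 17 measured genes of the list 11 were at least 1.5-fold lower (64.7%, against 12.2% of all mural genes) and none higher. The median log2 ratio was -0.87 against 0.01 over all mural genes, and 16 of the 17 ratios were below 0. The summed level of the list was 7594 CPM in SILT and 14809 CPM in lamina propria. In endothelial cells the median was -0.13 over 18 genes with none past 1.5-fold. In dendritic cells it was -0.49 over 20 with 6 lower and 1 higher (30% and 5%, against 11% and 3.88% of all dendritic genes). In monocyte-macrophages it was -0.46 over 18 with 3 lower (16.7%, against 1.81% of all genes of the lineage). In the Csf2+/+ mural cells the same 17 genes had a median of 0.08, with 4 of the 17 below 0.

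Fos, a subunit of the AP-1 transcription factor, stood at 1169 CPM in SILT and 2912 CPM in lamina propria in mural cells, 2.49-fold lower (2.20 to 2.83), with a UMI in 41 of 50 and 141 of 151 cells. Elsewhere it was 1676 against 1856 CPM (endothelial), 2882 against 3044 CPM (dendritic) and 2852 against 3461 CPM (monocyte-macrophage). Jun, its partner, stood at 1193 and 2501 CPM in mural cells, 2.1-fold lower (1.85 to 2.38), and Junb at 607 and 1425 CPM, 2.35-fold lower (1.98 to 2.8). The zinc finger factor Egr1 stood at 771 and 1808 CPM and Fosb at 369 and 1003 CPM. Fos, Fosb, Jun and Junb were thus all lower in the mural cells of the SILT library, by more than 2-fold each.

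Zfp36, which speeds the decay of cytokine messages, stood at 230 and 625 CPM in mural cells, 2.72-fold lower (2.06 to 3.65). Ppp1r15a, which reverses the translational block of the stress response and is not in the list, stood at 90.2 and 315 CPM, 3.49-fold lower (2.26 to 5.65). Btg2, an antiproliferative gene, stood at 275 and 759 CPM. In Csf2+/+ mural cells the log2 ratios were 0.65 for Fos, 0.06 for Jun, 0.27 for Junb, 0.08 for Zfp36 and 0.33 for Ppp1r15a. The size of the mural differences depended on the exclusive gate: with cells passing several gates kept in each lineage, an alternative added after seeing the data, the Csf2-/- log2 ratio was -0.58 for Fos, -0.47 for Jun, -0.46 for Junb and -0.79 for Zfp36, and the genes called in the mural lineage fell from 45 to 3 higher and from 38 to 2 lower.

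**Figure D5:**
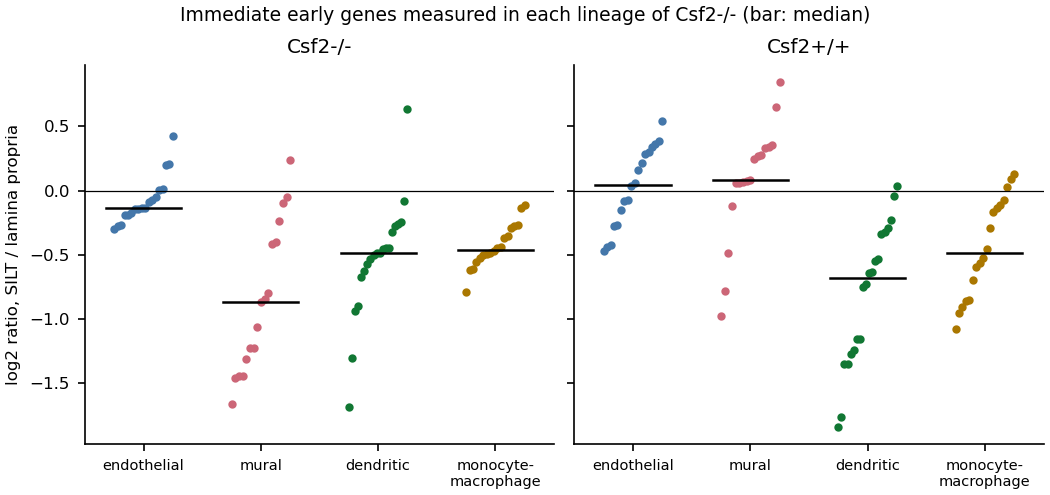
Log2 ratio of SILT to lamina propria (vertical axis) of the measured immediate early genes in each lineage, Csf2-/- and Csf2+/+ side by side; points are genes and bars medians. Mural cells have a median of -0.87 in Csf2-/- and 0.08 in Csf2+/+ over the same 17 genes.

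Immediate early promoters are bound by factors that read short DNA elements. The 250 bases before the annotated start were searched on both strands for the cAMP response element TGACGTCA, bound by CREB, for the AP-1 element TGANTCA, and for the CArG box of serum response factor. Of the 11 lower genes 9 had a promoter in the RefSeq table, of which 1 held a cAMP response element (Btg2), 1 a CArG box (Zfp36) and none an AP-1 element. Over 32851 mouse promoters the shares were 1.55%, 1.47% and 6.75% for the cAMP response element, the CArG box and the AP-1 element. Among the 6 other measured genes of the list 1 (Dusp1) held a cAMP response element. The promoters of Zfp36, Btg2 and Ppp1r15a are printed because they hold such a match, with the match in capitals and overlapping no other of the 3 elements. They are from RefSeq on GRCm38.p6, minus strand, at chr7:28379229-28379478, chr1:134079156-134079405 and chr7:45526269-45526518, and the match begins 58, 166 and 12 bases before the start. A match is a description of the letters only.
Zfp36: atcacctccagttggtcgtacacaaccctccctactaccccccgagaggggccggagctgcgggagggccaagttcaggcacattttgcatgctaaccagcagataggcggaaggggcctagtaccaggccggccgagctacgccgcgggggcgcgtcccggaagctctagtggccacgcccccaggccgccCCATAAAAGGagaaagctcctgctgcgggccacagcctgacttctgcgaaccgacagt
Btg2: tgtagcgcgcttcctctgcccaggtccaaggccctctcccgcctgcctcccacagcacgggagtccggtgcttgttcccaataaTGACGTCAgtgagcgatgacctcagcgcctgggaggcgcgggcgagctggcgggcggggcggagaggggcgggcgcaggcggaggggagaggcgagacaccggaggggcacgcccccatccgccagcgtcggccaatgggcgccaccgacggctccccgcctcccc
Ppp1r15a: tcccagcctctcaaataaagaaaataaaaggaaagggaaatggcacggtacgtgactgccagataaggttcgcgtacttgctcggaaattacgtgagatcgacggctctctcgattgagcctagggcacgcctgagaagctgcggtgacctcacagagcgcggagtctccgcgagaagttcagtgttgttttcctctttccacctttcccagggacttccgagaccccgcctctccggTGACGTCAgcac

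Among the genes higher in SILT mural cells, S100a6, a small calcium-binding protein, was read in most cells. It stood at 2521.9 CPM in SILT and 842 CPM in lamina propria, 3.0-fold higher (2.69 to 3.34), in 44 of 50 and 123 of 151 cells, and at a log2 ratio of 1.23 in Csf2+/+. Prss23, a serine protease, stood at 189 and 62.0 CPM, 3.04-fold higher (2.01 to 4.57), in 17 and 26 cells, and at a log2 ratio of 1.54 in Csf2+/+. Entpd1, the ectoenzyme CD39 that degrades extracellular ATP, stood at 86.1 and 17.7 CPM, 4.86-fold higher (2.42 to 9.96), on 21 and 16 UMIs. Some endothelial markers were also higher in SILT mural cells, Pecam1 at 86.1 and 13.3 CPM and Plvap at 123 and 62.0 CPM. Others were closer to level, Esam at 299 and 296 CPM and Emcn at 16.4 and 13.3 CPM. The part of endothelial RNA in the mural differences was not tested.

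Of 19 measured genes of the extracellular matrix list 3 were at least 1.5-fold higher in mural cells (15.8%, against 10.6% of all mural genes) and none lower, with a median log2 ratio of 0.18. Some genes of secreted matrix proteins, within and outside the list, were called higher on few cells. Fn1, fibronectin, stood at 332 and 32.1 CPM, 10.3-fold higher (6.69 to 16.4), with 48 of its 81 SILT UMIs in 1 cell, and it was 4.82-fold higher with the highest cell of each library left out. Postn, periostin, stood at 402 and 84.2 CPM, 4.77-fold higher (3.5 to 6.53), and 3.26-fold higher without the highest cells. Ogn, a small proteoglycan, stood at 226 and 25.5 CPM with 51 of its 55 SILT UMIs in 1 cell, and was 1.12-fold lower without the highest cells. Clec3b, tetranectin, stood at 119 and 7.75 CPM, 15.3-fold higher (6.58 to 41.5), with 23 of its 29 SILT UMIs in 1 cell.

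The 10 genes of the fibroblast list summed to 6376 CPM in SILT and 4803 CPM in lamina propria. Col1a1, a chain of type I collagen, stood at 672 and 349 CPM, while Lum at 82.0 and 14.4 CPM and Mfap5 at 61.5 and 18.8 CPM counted as measured only through their SILT level. Cells with at least 2 UMIs of Lum, Ogn, Clec3b and Mfap5 were 6 of 50 and 16 of 151, and the part of fibroblast RNA in the mural differences was not tested. The pericyte list had a median of -0.07 over 11 genes and the contractile list 0.18 over 12. In the contractile list Acta2, smooth muscle actin, stood at 1390.1 and 867 CPM, 1.60-fold higher (1.41 to 1.82), and by 1.2-fold once the highest cell of each library was left out. Synpo2, an actin-binding protein of the same list, stood at 49.2 and 98.6 CPM, 2.003-fold lower (1.09 to 4.02), on 12 and 89 UMIs.

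Many mural calls rested on few molecules. Fewer than 20 SILT UMIs stood behind 33 of the 38 lower genes, which a low level in SILT makes likely, and behind 19 of the 45 higher genes. All 38 lower genes, and 34 of the 45 higher ones, were still 2-fold or more apart after the highest cell was left out of each library. This step takes a larger part of the 50 SILT cells than of the 151 lamina propria cells. It moved the median log2 ratio of all mural genes from 0.01 to -0.10. It therefore favours lower genes and says little about whether the lower calls rest on few cells. Zfp704, a zinc finger gene, had 6 UMIs in SILT and 103 in lamina propria, 4.64-fold lower (2.06 to 12.9). Socs3, the feedback inhibitor of cytokine receptors, stood at 53.3 and 230 CPM in mural cells, 4.32-fold lower (2.47 to 8.25), and at 77.8 and 212 CPM in dendritic cells, 2.72-fold lower (2.16 to 3.45). In Csf2+/+ 27 of 41 higher and 23 of 35 lower mural genes had the same direction, where 47.7% of all measured genes were above and 52.3% below 0.

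Dendritic cells of SILT held more RNA of the migratory state, from a handful of cells. Ccr7, the receptor that guides dendritic cells into lymphatics, had 70 UMIs from 4 cells in SILT (55.6 CPM) and 0 in lamina propria, at least 28.0-fold higher when 3 counts are set as the limit in lamina propria. Fscn1, the actin-bundling protein fascin, had 66 UMIs from 4 cells in SILT and 2 UMIs from 1 cell in lamina propria, a ratio of 39.6 (10.5 to 334). Il4i1, an amino acid oxidase, stood at 62.0 and 5.29 CPM, 11.7-fold higher (5.65 to 28.1), and Ccl22, a chemokine for regulatory T cells, at 64.3 and 5.29 CPM, 12.2-fold higher (5.88 to 29.1), with 69 of its 81 SILT UMIs in 1 cell. The 12 genes of the migratory list summed to 593 CPM in SILT and 203 CPM in lamina propria. Only 7 of the 12 were measured, and Ccr7, Fscn1, Il4i1 and Ccl22 passed the 25 CPM mean through their SILT level, so no count or median over them is given. Cells with at least 2 UMIs of Ccr7 and Fscn1 were 5 of 89 in SILT (5.62%, 1.85 to 12.6%) and 1 of 113 in lamina propria (0.885%, 0.0224 to 4.83%), and the intervals overlap. Without these cells, and without the 2 cells with at least 10 UMIs of S100a8 and S100a9, Il4i1 was 2.44-fold higher and Ccl22 1.23-fold lower in SILT. In the Csf2+/+ pair the log2 ratio was 1.15 for Ccr7, -0.82 for Fscn1 and -3.43 for Ccl22.

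S100a8 and S100a9, neutrophil alarmins, were higher in SILT dendritic cells through 2 cells. S100a9 had 636 UMIs in SILT, of which 466 were in 1 cell, and 6 in lamina propria. S100a8 had 596, of which 443 were in 1 cell, and 10. S100a9 was still 40.7-fold and S100a8 20.3-fold higher once the highest cell was left out of both libraries. Without the 2 SILT cells with at least 10 UMIs of both genes together, and the cells with at least 2 UMIs of Ccr7 and Fscn1, the log2 ratios were 0.12 for S100a9 and -0.36 for S100a8. Other higher genes were spread more widely. Samsn1, an adaptor of lymphoid and myeloid cells, stood at 68.3 and 26.5 CPM, 2.58-fold higher (1.75 to 3.85), in 36 and 31 cells. Bcl2a1b, an anti-apoptotic gene, stood at 156 and 28.5 CPM, 5.47-fold higher (3.92 to 7.80), in 30 and 15 cells, though it has near-identical copies between which reads can be split.

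Genes of the type 2 subset were lower in SILT dendritic cells for the most part. Itgam, the CD11b chain that marks type 2 cells and on which the cells were selected, stood at 74.7 CPM in SILT and 168 CPM in lamina propria, 2.25-fold lower (1.77 to 2.88), with a UMI in 41 of 89 (46.1%, 35.4 to 57.0%) and 76 of 113 cells (67.3%, 57.8 to 75.8%). Tnfsf9, the ligand of CD137, stood at 34.2 and 134 CPM, 3.93-fold lower (2.82 to 5.60), in 21 and 44 cells. Irf4, the transcription factor of type 2 cells, stood at 33.4 and 65.5 CPM, 1.96-fold lower (1.36 to 2.89). Tnfsf9 and Irf4 belong to the type 2 list and were not among the 17 genes called lower in dendritic cells. Of 12 measured genes of the type 2 list 6 were at least 1.5-fold lower and 1 higher (Ltb, lymphotoxin beta, at 64.3 and 32.4 CPM). Of all dendritic genes 11% were at least 1.5-fold lower and 3.88% higher. The median log2 ratio of the list was -0.59, against -0.11 over all dendritic genes. The same genes of the type 2 list had a median of -1.68 in Csf2+/+.

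The type 1 subset differed little in Csf2-/-. The type 1 list had a median log2 ratio of -0.02 over 10 genes, with none past 1.5-fold either way, and Xcr1 stood at 163 against 165 CPM. Cells with at least 2 UMIs of Xcr1 and Clec9a were 31 of 89 in SILT (34.8%, 25.04 to 45.7%) and 33 of 113 in lamina propria (29.2%, 21.0 to 38.5%). In Csf2+/+ the same list had a median of 0.66 and such cells were 53 of 116 in SILT and 14 of 76 in lamina propria.

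The 17 genes called lower in dendritic cells had mixed roles. They included Pde7a, a phosphodiesterase, at 19.1 and 39.05 CPM, and Erap1, a peptide-trimming aminopeptidase, at 18.3 and 43.7 CPM. Ptgs2, the inducible prostaglandin synthase, stood at 12.7 and 58.2 CPM in dendritic cells, 4.58-fold lower (2.67 to 8.37), in 8 and 13 cells. Egr3, an immediate early factor, stood at 31.8 and 103 CPM, 3.23-fold lower (2.27 to 4.69), in 21 and 37 cells. Nlrp3, the inflammasome sensor, stood at 15.9 and 47.0 CPM, 2.96-fold lower (1.78 to 5.13), in 17 and 38 cells, and Ccl3, an inflammatory chemokine, at 19.1 and 56.3 CPM, 2.95-fold lower (1.86 to 4.86), in 7 and 21 cells. Il1b, the cytokine that Nlrp3 helps to mature and not one of the 17, stood at 250.2 and 482 CPM, 1.93-fold lower (1.68 to 2.20). In Csf2+/+ the log2 ratios of Ptgs2, Nlrp3 and Ccl3 were above 0, at 0.56, 0.23 and 0.52, though Ccl3 did not count as measured there. All 17 lower dendritic genes stayed at least 2-fold without the highest cell of each library, against 11 of the 17 higher ones. That step itself moved the dendritic genes at least 1.5-fold higher and lower from 180 and 511 to 134 and 546. The 2 directions are therefore not tried equally by it.

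Monocyte-macrophages of SILT held Il22ra2, the soluble receptor that captures the cytokine IL-22, and those of lamina propria did not at this depth. It had 701 UMIs from 44 of 974 cells in SILT (68.4 CPM, 63.5 to 73.7) and 0 UMIs in 756 cells of lamina propria, at least 177-fold higher against a limit of 3 counts. The share of cells with a UMI was 4.52% (3.3 to 6.02%) against 0% (0 to 0.487%). In endothelial cells, which are not known to make it, 1 of 335 cells of SILT and 0 of 330 of lamina propria held a UMI, at a median depth of 6699 UMIs per SILT cell against 8778.5 in SILT monocyte-macrophages. The ungated barcodes stood at 121 and 4.22 CPM, and the Csf2+/+ monocyte-macrophages had a log2 ratio of 7.29, with a UMI in 255 of 1965 and 2 of 1697 cells. In both genotypes Il22ra2 was thus read in SILT and in at most 2 monocyte-macrophages of lamina propria.

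Chemokines induced by interferon gamma were higher as well. Cxcl9, which attracts T cells through CXCR3, stood at 59.1 and 16.0 CPM, 3.69-fold higher (3.03 to 4.51), in 26 and 18 cells with 272 of 605 SILT UMIs in 1 cell, and 3.11-fold higher without the highest cells. Cxcl10, a second CXCR3 ligand, stood at 71.8 and 30.5 CPM, 2.35-fold higher (2.03 to 2.74). Of 13 measured interferon response genes 5 were at least 1.5-fold higher and none lower, where 1.33% of all genes of the lineage were higher and 1.81% lower. Their median log2 ratio was 0.31 against -0.11 over all genes of the lineage, and 0.26 in Csf2+/+. A gene can pass the 25 CPM mean through its SILT level, as Cxcl9 did. How many of the 5 higher genes did so is not given, and the count and median are to be read with that limit. Pla2g2d, a secreted phospholipase, stood at 44.0 and 13.4 CPM, 3.28-fold higher (2.64 to 4.10), in 99 and 33 cells, and 3.78-fold higher without antibody-rich cells. Vcam1, an adhesion molecule, stood at 111 and 61.4 CPM, 1.80-fold higher (1.62 to 2.01), in 270 and 133 cells.

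Other higher genes of this lineage went with the antibody-rich cells. Slpi, a secreted protease inhibitor, stood at 175 and 37.1 CPM with all cells and at 25.1 and 12.3 CPM without the antibody-rich ones. Ly6d, a marker of lymphoid cells, went from 123 and 30.1 CPM to 7.53 and 0.817 CPM, and Cd79a, the signalling chain of the B cell receptor, from 45.5 and 13.1 CPM to 11.2 and 0.681 CPM. Ly6d and Cd79a were still higher in SILT, at levels of a few CPM. Without the antibody-rich cells 12 genes were called higher, 8 of them among the 17.

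The 5 genes called lower in SILT monocyte-macrophages were Lpl, Retnla, Fam71a, Hist1h2ap and Hist1h2ae. Lpl, lipoprotein lipase, stood at 56.9 and 138 CPM, 2.42-fold lower (2.19 to 2.68), in 147 and 176 cells. Retnla, a secreted protein of alternatively activated macrophages, stood at 30.6 and 123 CPM, 4.01-fold lower (3.52 to 4.57), with a UMI in 25 of 974 (2.57%, 1.67 to 3.77%) and 45 of 756 cells (5.95%, 4.37 to 7.88%). Both were lower in Csf2+/+ SILT, with log2 ratios of -1.97 and -1.32. Hist1h2ap, a replication-dependent histone, stood at 43.5 and 119 CPM, 2.75-fold lower (2.45 to 3.08). It had the opposite sign in cells with under 4 UMIs of the C1q genes, at a log2 ratio of 0.44.

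Genes that define resident macrophages differed little. Over 19 measured genes the resident macrophage list had a median log2 ratio of 0.04, with none past 1.5-fold either way, against -0.54 in Csf2+/+. C1qa, a complement component of resident macrophages, stood at 3478 CPM in SILT and 2770.4 CPM in lamina propria, 1.26-fold higher (1.23 to 1.28), and cells with at least 4 UMIs of the C1q genes were 68.6% (65.6 to 71.5%) and 66.9% (63.5 to 70.3%). Ccr2, the monocyte receptor whose locus carries the RFP allele, stood at 283 and 415 CPM, 1.47-fold lower (1.39 to 1.54). Ly6c2, another gene of monocytes, went the other way, at 335 CPM in SILT and 194 CPM in lamina propria. Monocyte genes were thus not lower in SILT as a group. Cx3cr1, whose locus carries the GFP allele, stood at 418 and 526 CPM, 1.26-fold lower (1.2 to 1.31).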

How the data were processed

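Per the labels' protocols, the libraries were made with version 2 of the single cell 3' chemistry. The submitters' processing notes name Cell Ranger 2.1.1 and mm10, whereas per the file headers the deposited UMI counts, whole numbers with no normalization for 32285 features, were written by version 6.0.0, and the difference could not be settled from the files. The members, gates and gene lists were chosen with earlier results of these data known. Counts were summed per lineage with scanpy 1.11.5 in Python 3.11.15, and intervals are exact Poisson (levels), Clopper-Pearson (shares) and conditional binomial (ratios), from scipy 1.17.1. No p-value was computed. No doublet was removed other than barcodes passing several gates. PCR and free RNA are not covered by the intervals. The named genes were, for shared differences, up to 10 in each direction whose ratio in their weakest lineage lay farthest from 1. For each lineage and each kind of call they were the 6 with the interval bound farthest from 1. To these came 2 members at each end of each list and 8 fixed genes. Mitochondrial, immunoglobulin, haemoglobin and unnamed genes were outside the rule for the highest and lowest, and are named here as shared genes or list members. Madcam1, Vcam1, Gpihbp1, Dnase1l3, Bst2, Clec10a, Tnip3, Il1b and Egr1 were named from the lists or the pairs of lineages. The calculations were tested on simulated data. Scaling alternatives used edgeR 4.0.16 and DESeq2 1.42.0 factors only. The other alternatives were lower-level floors, cell filters, stricter and looser gates, Scrublet, equal weights per cell, thinning to 2000 UMIs, and leaving out the highest cell, and, added after seeing the data, marked subsets, antibody-rich cells and cells of several gates. A member of a gene list is not reported here.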

Additional observations from a re-analysis of the deposited data

Results flagged for a closer look

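For some called genes measured in both genotypes, the Csf2-/- and Csf2+/+ pairs moved in opposite directions, each by at least 1.5-fold in the same lineage. Whether the genotypes differ was not tested, since each direction rests on 1 library per tissue. In endothelial cells Cldn5 had a log2 ratio of SILT to lamina propria of -1.59 in Csf2-/- and 0.98 in Csf2+/+. In mural cells Fos had -1.32 and 0.65, Ogn 3.15 and -1.41, and Postn 2.26 and -0.88. In dendritic cells Fscn1 had 5.31 and -0.82, Tspan3, a tetraspanin, 1.47 and -0.62, and Ccl22 3.60 and -3.43. In monocyte-macrophages Hist1h2ae, a replication-dependent histone, had -1.01 and 0.82. In Csf2-/- SILT 51 of 55 Ogn UMIs and 69 of 81 Ccl22 UMIs came from 1 cell.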

How the results depend on the processing

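No paired analysis was possible because each group is 1 library, and none could be left out. Over the named genes and alternatives, 1119 values moved by less than their counting interval, 189 by more, and 12 changed sign. Mfap5 is not among these 12. Ccr7 and Il22ra2, with 0 UMIs in lamina propria, have no ratio and are not counted. The changes of sign were Ogn in mural cells (log2 ratio -0.53 with stricter gates, -0.16 without the highest cell, -0.012 without the marked subset), Fxyd2 in mural cells (-0.64 without the highest cell), Ccn2 in mural cells (-0.27 without the marked subset, -0.46 with cells of several gates kept), Mki67 in endothelial cells (-1.10), S100a8 (-0.36) and Ccl22 (-0.30) in dendritic cells without the marked subset, Trp53inp1 in dendritic cells (-0.084 without antibody-rich cells), and in C1q-negative monocyte-macrophages Hist1h2ap (0.44) and Hist1h2ae (0.72).

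Counts of genes called in 1 lineage are given as higher and lower. With no floor on the level they were 21 and 36 in endothelial and 125 and 94 in monocyte-macrophage cells, 53 higher in dendritic cells, and 3 higher and 7 lower in all 4 lineages. At a mean of 100 CPM, where fewer genes are tested, they were 1 and 4 (endothelial), 11 and 7 (mural), 4 and 4 (dendritic) and 7 and 0 (monocyte-macrophage). Thinned to 2000 UMIs per cell, they were 33 and 21 (endothelial), 12 and 13 (mural), 2 and 6 (dendritic), and 8 lower in monocyte-macrophages. Without the highest cell 3 endothelial, 16 mural and 2 dendritic genes were higher. With cells of several gates kept they were 2 and 0 (endothelial), 3 and 2 (mural), and 3 lower in monocyte-macrophages. Lower monocyte-macrophage genes were 3 with TMM factors, 3 with a free RNA screen of 25% and 2 with stricter gates. Lower dendritic genes were 28 with CPM without mitochondrial, ribosomal protein and haemoglobin genes, 29 with stricter gates and 41 with each cell weighted equally, which gave 65 lower mural genes. Looser gates gave 83 higher mural genes. Without the marked subsets 2 endothelial and 8 dendritic genes were higher, and without antibody-rich cells 3 genes were higher in all 4 lineages. The causes were not tested.

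Splits of genes at least 1.5-fold higher and lower also moved in mural cells without the highest cell (346 and 923), in dendritic cells on thinning (182 and 292), in monocyte-macrophages without antibody-rich cells (73 and 58), and in endothelial cells with equal weights (171 and 67), at 100 CPM (3 and 10), on thinning (411 and 278) and with cells of several gates kept (12 and 24).

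Shares of cells that moved past their interval were, with at most 5% mitochondrial UMIs and at least 500 genes, 14.7% (endothelial), 6.85% (dendritic) and 40.8% (monocyte-macrophage) in lamina propria and 43.5% (monocyte-macrophage) in SILT. With stricter gates they were 4.66% and 2.27% (dendritic) and 32.7% and 31.7% (monocyte-macrophage) in lamina propria and SILT. In SILT monocyte-macrophages were 43.5% with looser gates and 44.2% in cells thinned to 3000 UMIs with gates lowered to 2, 2, 1 and 1 UMIs, where endothelial cells were 17.7%. Depth limits mural cells most, whose SILT sum is 243865 UMIs.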

Other observations

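Xist, the RNA that coats the inactive X chromosome of female cells, was lower in SILT in 3 lineages and level in the other. It stood at 553 CPM in SILT and 562 CPM in lamina propria in endothelial cells, 615 and 1034 CPM in mural cells, 546 and 972 CPM in dendritic cells and 627 and 924 CPM in monocyte-macrophages. Ddx3y, a gene of the Y chromosome, was also present in both libraries, at 47.7 and 40.3 CPM in endothelial cells and 28.6 and 23.2 CPM in dendritic cells. Whether the SILT and lamina propria libraries differ in their mix of female and male cells was not tested. Tsix, the antisense transcript of Xist, was lower in SILT in the same 3 lineages, at 8.20 and 67.6 CPM in mural, 11.1 and 61.6 CPM in dendritic and 20.6 and 51.2 CPM in monocyte-macrophage cells, and its log2 ratios were -2.90, -4.82 and -1.95 in the Csf2+/+ pair. In the Csf2+/+ pair Xist stood at 289.7 and 437 CPM in endothelial cells and at 260.02 and 345 CPM in monocyte-macrophages.

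Among the groups not described above, MHC class II genes, which present antigen to helper T cells, differed little in monocyte-macrophages, with a median log2 ratio of 0.07 over 11 genes and 1 at least 1.5-fold higher (H2-DMb2, 45.8 and 29.98 CPM). In dendritic cells their median was -0.30 over 11 genes, with none past 1.5-fold. Of 11 heat shock genes in monocyte-macrophages 2 were at least 1.5-fold lower (18.2%, against 1.81% of all genes of the lineage). They were Hspa1a at 321 and 542 CPM and Hspa1b at 373 and 599.9 CPM. In Csf2+/+ the levels were 369 and 732 CPM for Hspa1a. The glucocorticoid response list had 4 of 6 genes at least 1.5-fold lower in dendritic cells, against 11% of all dendritic genes. Tsc22d3, a glucocorticoid-induced repressor, stood at 167 and 264 CPM, 1.58-fold lower (1.34 to 1.88). Ctsl, a lysosomal protease, stood at 303 and 181 CPM in monocyte-macrophages, 1.67-fold higher (1.57 to 1.78).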
